A study of Mus musculus with 2 samples.

Results

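Malat1 and 5 other noncoding RNAs that act in the nucleus or are made from snoRNA host genes (Neat1, Gas5, Snhg1, Snhg12 and Kcnq1ot1) were followed on a pair of mouse whole-genome oligonucleotide arrays. All probes of these RNAs that were not controls were taken by their accession or by the RNA's name, which gave 22 of the 55674 probes of the array, with 1 spot each, for 6 of the 20662 genes it names. Malat1 was represented by 4 probes, Neat1 by 6, Gas5 by 3, Snhg1 by 1, Snhg12 by 1 and Kcnq1ot1 by 7. Of the 4 Malat1 probes, 3 carry the name NEAT2, which RefSeq lists as a synonym of Malat1 and of no other gene. The 3 Gas5 probes carry the accession NR_002840, which the RefSeq gene table used for names does not hold; it is taken here, from general knowledge, as an earlier accession of mouse Gas5.

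The arrays measured ovaries of 2-week-old mice, cut lengthwise into symmetrical pieces and cultured for 3 days. In 1 group the medium held tachykinin receptor (TKR) agonists, namely [Sar9,Met(O2)11]-SP for TACR1, GR-64349 for TACR2 and a succinylated analogue of a substance P fragment for TACR3. In the other it held the antagonists L-703,606 for TACR1, GR-94800 for TACR2 and SB218795 for TACR3, and every compound was used at 1 μM. Tachykinins are neuropeptides such as substance P that act through these receptors, and the study used the comparison to screen for genes under their control. Each group has 1 array and neither is of untreated ovary, so lowering by the agonists and raising by the antagonists cannot be told apart. Neither the strain behind these RNAs nor the number of ovaries pooled is given in the sources used here. All 8 granulosa cell markers and all 9 oocyte markers examined were well above background on both arrays, as the label "ovary" requires. By the criterion of the image analysis software, signal well above background was seen at 65.4% of 59305 spots with the agonists and at 61.6% with the antagonists, controls left aside, and 0 spots were saturated.

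All log2 ratios are given as agonists minus antagonists, after each signal was divided by the 75th percentile of its array (672 signal units with the agonists, 569 with the antagonists), so that -1 stands for a 2-fold lower level with the agonists. No test was made, because there is no replicate. The software's error of a log2 ratio was 0.20 for most of these spots and covers the reading of the spot, not the spread between ovaries. The RNAs were chosen by the signals and ratios of this same comparison, in which Malat1 had stood out as low, so the values below are a description. Levels are compared for a probe between arrays and never between probes, since each probe binds with its own strength.

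Long noncoding RNAs act as RNA, without being translated. Malat1 is one of the most abundant of them and gathers in nuclear speckles, bodies that store splicing factors; its mature end is cut by RNase P rather than made by polyadenylation. Neat1, its neighbour in the genome, is the scaffold of paraspeckles, bodies that retain certain RNAs and proteins, and is needed in the mouse for normal formation of the corpus luteum. Gas5, Snhg1 and Snhg12 are spliced transcripts whose introns hold small nucleolar RNAs, the guides of rRNA modification, and whose exons are degraded during translation by nonsense-mediated decay. Kcnq1ot1 is transcribed from the paternal allele and silences a cluster of imprinted genes around Kcnq1 in cis.

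The promoters of Malat1, Gas5 and Snhg12 are shown because they share a sequence element while the ratios of these RNAs differed. Each runs from 250 bases before to 50 bases after an annotated start, 5′ to 3′ on the gene's strand, from RefSeq (GRCm38.p6): Malat1 at chr19:5802623-5802922 on the minus strand, Gas5 at chr1:161034916-161035215 on the plus strand and Snhg12 at chr4:132308428-132308727 on the plus strand. Capitals mark TGACG, a core of the cyclic AMP response element, on either strand (CGTCA where it lies on the opposite one), and the TATA-like letters TATATA.
Malat1: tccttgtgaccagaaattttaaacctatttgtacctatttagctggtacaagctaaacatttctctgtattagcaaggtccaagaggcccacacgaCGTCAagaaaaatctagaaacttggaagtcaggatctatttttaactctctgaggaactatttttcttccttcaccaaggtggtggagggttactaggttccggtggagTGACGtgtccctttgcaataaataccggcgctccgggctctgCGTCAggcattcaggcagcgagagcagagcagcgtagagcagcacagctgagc
Gas5: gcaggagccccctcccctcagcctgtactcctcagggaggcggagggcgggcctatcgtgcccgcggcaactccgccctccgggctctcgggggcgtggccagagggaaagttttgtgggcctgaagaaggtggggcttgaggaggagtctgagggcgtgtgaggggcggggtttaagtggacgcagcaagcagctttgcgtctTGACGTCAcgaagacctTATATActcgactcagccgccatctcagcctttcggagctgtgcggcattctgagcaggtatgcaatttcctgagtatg
Snhg12: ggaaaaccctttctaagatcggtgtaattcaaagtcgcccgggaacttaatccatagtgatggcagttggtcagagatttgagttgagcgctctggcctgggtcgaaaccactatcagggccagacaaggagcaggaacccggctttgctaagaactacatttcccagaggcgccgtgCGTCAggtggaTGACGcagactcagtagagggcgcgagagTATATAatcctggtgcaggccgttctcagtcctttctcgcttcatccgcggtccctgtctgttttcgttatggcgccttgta
The core element occurred at 3 places in the Malat1 window and at 2 in that of Snhg12. In the Gas5 window its 2 occurrences overlap in the palindrome TGACGTCA, the full element. Of 32851 promoter windows of this length, 20.8% held TGACG on either strand, 5.01% held it at 2 or more places and 1.79% held TGACGTCA, in which the shorter core is counted too. The letters TATATA were found in the Gas5 and Snhg12 windows and in 5.67% of all windows. The other annotated Gas5 start and the Snhg1 start had no TGACG, and Kcnq1ot1 had 1; Neat1 was not in the promoter table. The median log2 ratio of the 3879 measured genes with TGACG in a promoter was -0.15 and that of the 8246 without it -0.08. Other letters searched also went with a difference, with medians of -0.12 with GGGCGG and -0.07 without it. For TATAAA the difference was opposite, with -0.03 for genes that had it and -0.11 for those without. These letters are matches in a window and show nothing about binding of a factor.

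Malat1 was lower on the agonist array at every one of its probes. The probe for NR_002847 read 955 signal units with the agonists and 2160 with the antagonists, giving -1.42 on the log2 scale. The 3 probes named NEAT2 read 806, 839 and 964 with the agonists and 2143, 2045 and 2374 with the antagonists, in the same order. Before any scaling, each of the 4 probes read higher with the antagonists than with the agonists. Their log2 ratios were -1.65, -1.53 and -1.54, with a median of -1.53 and an SD of 0.095 over the 4 probes of 1 array pair. This is between 2.67- and 3.14-fold lower with the agonists. All 4 probes were past 2-fold, beside 0.705% of the 33073 usable probes, those well above background on both arrays. With no scaling, 98 usable probes were 2-fold lower and 1499 higher, in place of 233 and 890. Between 38 and 65 of these probes had a ratio at or under those of Malat1. In a piece of tissue, fewer cells with much Malat1 and less Malat1 per cell cannot be told apart.

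**Figure D1:**
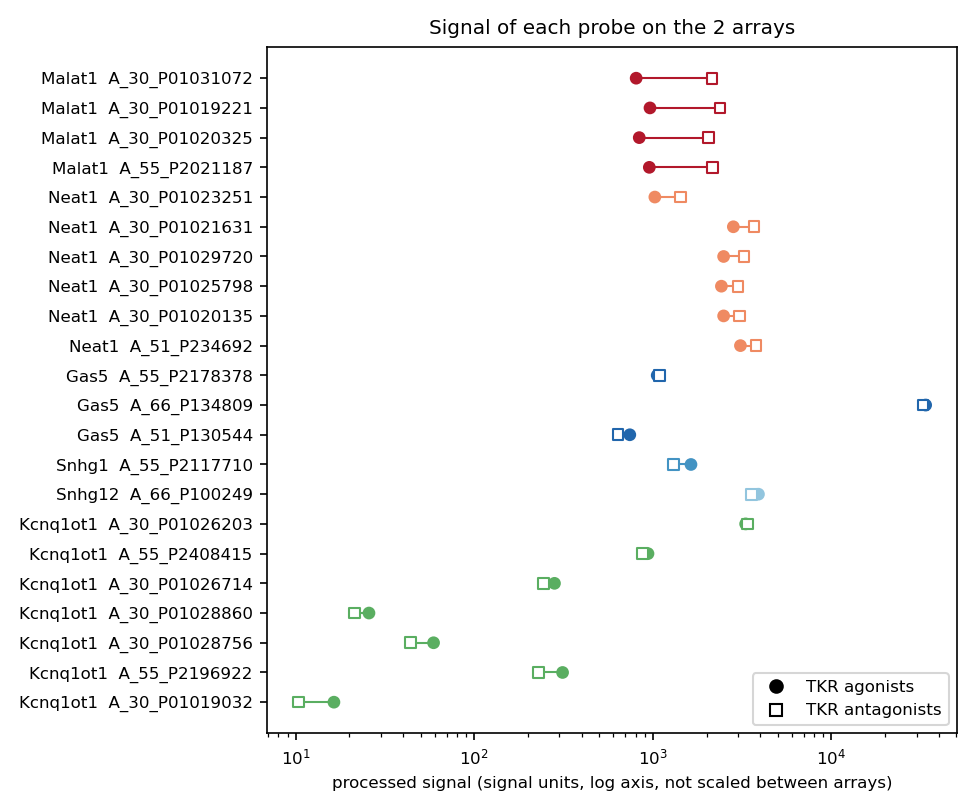
Processed signal of each of the 22 probes (log axis, signal units, before scaling between arrays) on the agonist array (filled circles) and the antagonist array (open squares), 1 spot per point. The 4 Malat1 probes sit at 806 to 964 with the agonists and at 2045 to 2374 with the antagonists, while the markers of the Gas5, Snhg12 and brightest Kcnq1ot1 probes nearly cover each other.

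Neat1 was also lower with the agonists at each of its 6 probes, by less than Malat1. The probe for NR_003513 read 3093 signal units with the agonists and 3777 with the antagonists (log2 ratio -0.53). For the 5 probes named NEAT1 the signals ran from 1026 to 2823 with the agonists, and with the antagonists from 1427 to 3676. All 6 antagonist signals were above the agonist signal of the same probe before scaling as well. The log2 ratios lay between -0.72 and -0.53 with a median of -0.59, and none was past 2-fold. Between 2.65% and 6.52% of all usable probes had a ratio at or under them, so Neat1 lay in the low tail without being among its extremes. The files give no position of a probe in its transcript, so its long form, on which paraspeckles are built, and its short form cannot be told apart.

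The snoRNA host genes differed little between the arrays. The brightest Gas5 probe read 33700 signal units with the agonists and 32608 with the antagonists (log2 ratio -0.19). The other Gas5 probes read 1058 and 1088 (-0.28), and 743 and 638 (-0.02), agonists first. Snhg1 read 1635 with the agonists and 1307 with the antagonists (0.08). Snhg12 read 3902 with the agonists and 3556 with the antagonists (-0.11). All 5 log2 ratios lay between -0.28 and 0.08, and without scaling 4 of the 5 signals were higher with the agonists. The sign depended on the setting for 3 of the 5 probes; Snhg1 stayed above 0 and the lowest Gas5 probe below 0 in all 12 settings tried. Since the median log2 ratio of all usable probes was -0.10, Gas5 and Snhg12 lay close to the bulk of the array.

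Kcnq1ot1 had 7 probes of very unequal brightness, from 16.4 to 3308 signal units on the agonist array. The dimmest was not well above background on either array (16.4 with the agonists and 10.4 with the antagonists) and has no usable ratio. The brightest read 3308 with the agonists and 3381 with the antagonists (log2 ratio -0.27). The probes for NR_001461 read 939 and 876 (log2 ratio -0.14), and 312 and 229 (0.20), agonists first. The other 3 had log2 ratios of -0.03, 0.02 and 0.19. The 6 usable ratios thus fell on both sides of 0, with a median of -0.01 and an SD of 0.19 over probes, about the error of a spot. Of the 21 usable probes of the 6 RNAs, 0 were 2-fold or more higher with the agonists, against 2.69% of all usable probes.

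**Figure D2:**
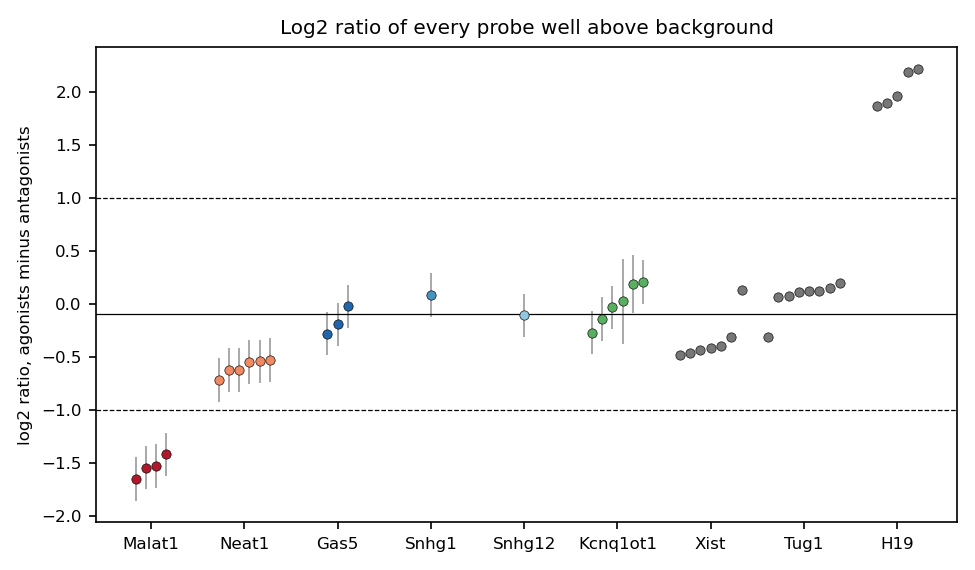
Log2 ratio (agonists minus antagonists) of every probe well above background on both arrays for the 6 RNAs and for Xist, Tug1 and H19. Each point is 1 probe and grey bars are the software's error of the spot (drawn for the 6 RNAs). Dashed lines mark 2-fold and the solid line the median of all usable probes. The 4 Malat1 points lie between -1.65 and -1.42 and the 6 Neat1 points between -0.72 and -0.53, and the 2 ranges do not overlap.

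Ordered by the median log2 ratio over probes, the RNAs ran from Malat1 (-1.53) through Neat1 (-0.59), Gas5 (-0.19), Snhg12 (-0.11) and Kcnq1ot1 (-0.01) to Snhg1 (0.08). The last 4 overlap within the error of a spot and have no settled order. The highest Malat1 ratio was below the lowest Neat1 ratio, and the highest Neat1 ratio below the lowest of the other 4 RNAs. Both statements held in 9 of 9 settings of the scaling and background correction. A constant factor per array cannot change this order, so only quantile scaling, loess scaling and the normexp correction could have altered it. The difference between the medians of Malat1 and Neat1 was -0.95 and lay between -0.97 and -0.87 over the 9 settings. A factor common to an array cancels in this difference too. Several probes on an RNA show how far the readings of that RNA match and are no replicate of the culture.

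**Figure D3:**
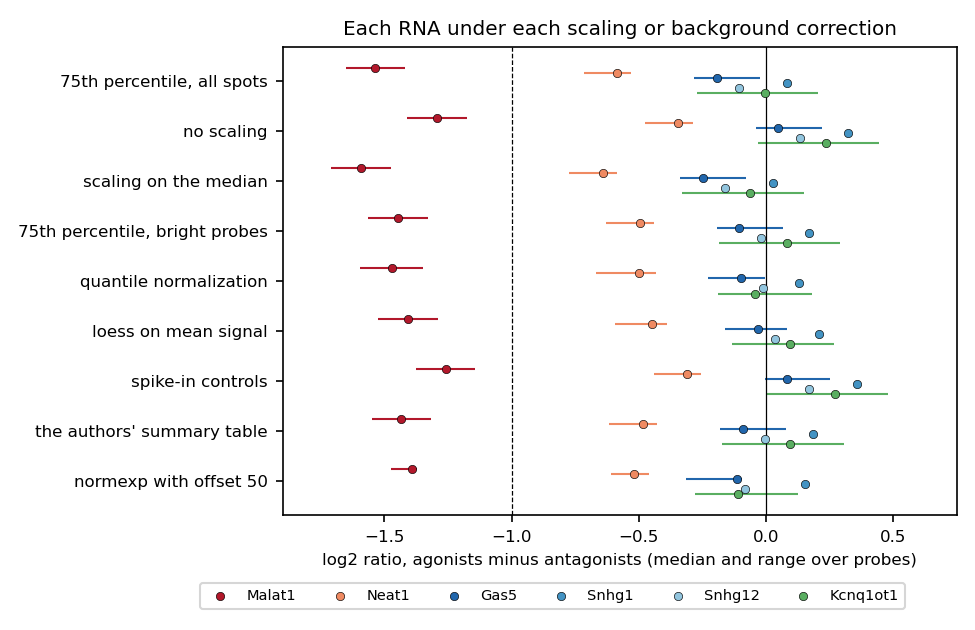
Median (point) and range (line) of the log2 ratio over the probes of each RNA under 9 settings of scaling or background correction; the dashed line marks 2-fold lower with the agonists. Malat1 stays left of this line in all 9 settings, with medians between -1.59 and -1.26, while Gas5, Snhg12 and Kcnq1ot1 cross 0.

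Genes with several probes give a frame for this. Of 611 named genes with 3 or more usable probes, Malat1 was the only one with every probe at least 2-fold lower (0.164%), and 4 had every probe at least 2-fold higher (0.655%), namely Ccm2l, Flrt3, Mgll and H19. Malat1 was alone in this in each of the 9 settings. The SD over the probes of a gene had a median of 0.14 in these 611 genes, against 0.095 for Malat1, 0.072 for Neat1, 0.13 for Gas5 and 0.19 for Kcnq1ot1. Only 14 of the 611 genes, Malat1 and Neat1 among them, had a median ratio at or under that of Neat1.

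**Figure D4:**
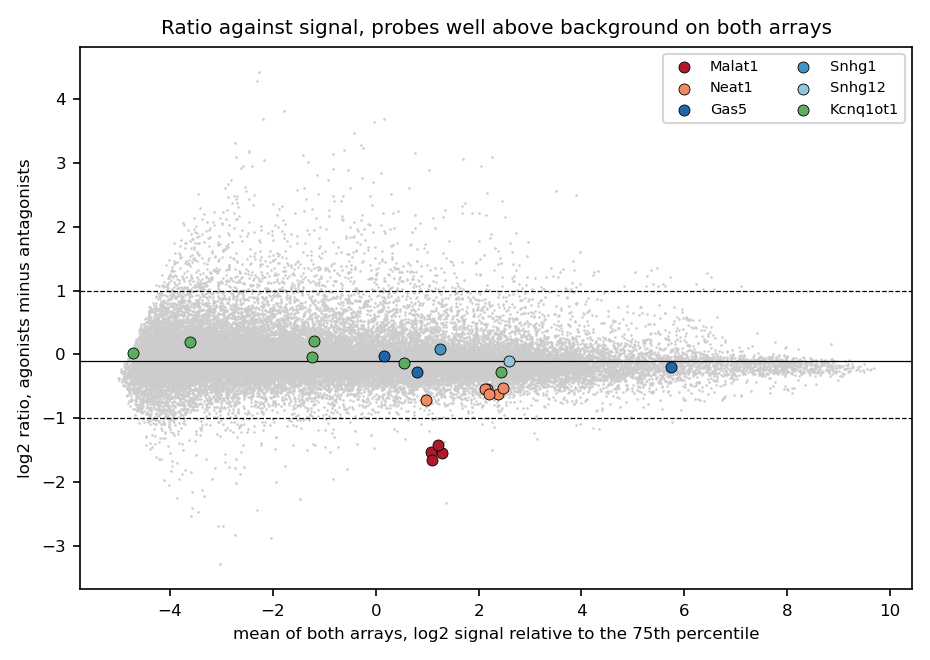
Log2 ratio (agonists minus antagonists) against the mean log2 signal of both arrays, relative to the 75th percentile, for the 33073 usable probes (grey); coloured points are the probes of the 6 RNAs, dashed lines mark 2-fold and the solid line the median of -0.10. The 4 Malat1 probes lie together below the grey cloud at mean signals over the 75th percentile. The Kcnq1ot1 probes spread from dim to bright near the median.

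Other long noncoding RNAs read by several probes did not share the ratio of Malat1. Xist, which coats the inactive X chromosome, had 7 probes with a median log2 ratio of -0.42; 6 lay between -0.48 and -0.31, and the probe for NR_001570 had 0.13. Tug1, another nuclear RNA, had 8 probes with a median of 0.12. H19, the imprinted RNA of growing tissues, went the other way at all 5 probes, with log2 ratios between 1.86 and 2.22; its brightest probe read 1840 signal units with the agonists and 335 with the antagonists. Over all 427 usable probes of long noncoding RNA genes the median log2 ratio was -0.03, and 7 were at least 2-fold lower, 4 of them those of Malat1. Without the 6 RNAs, 3 of 406 such probes (0.739%) were at least 2-fold lower and 22 (5.42%) at least 2-fold higher, 5 of them those of H19. Over all usable probes these shares were 0.705% and 2.69%. Protein-coding genes had a median of -0.10 over 19218 probes, with shares of 0.531% and 3.64%.

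Of the 18 other snoRNA host genes listed, 9 were on the array under a name the table holds, and all 9 were well above background. Their median log2 ratio was -0.14, from -0.43 for Snhg5 to 0.75 for Snhg18, and 0 were past 2-fold. Of 20 other nuclear regulatory RNAs 11 could be measured, with a median of 0.00, from -0.48 for Xist to 0.39 for Dnm3os, and 0 past 2-fold. Of 8 other imprinted noncoding RNAs 5 could be measured, with a median of 0.25, from -0.42 for Peg13 to 2.22 for H19, the only one past 2-fold. For comparison, 0.577% of the 15263 named genes, each by its brightest probe, were at least 2-fold lower and 4.02% at least 2-fold higher, and their median was -0.10.

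The genes that flank the 6 RNAs did not follow them as a group. Frmd8, a partner of the iRhom proteins that lies next to Neat1, had a log2 ratio of 0.30. Of 8 genes near the pair, the ratios ran from -0.52 for Tigd3 to 0.995 for Slc25a45, a mitochondrial carrier read at 228 signal units with the agonists and 96.6 with the antagonists, just under 2-fold. Beside Gas5, Snhg1 and Snhg12, 8 genes ran from -0.75 for Cenpl, a centromere protein, to 0.36 for Zbtb37. Slc3a2, the amino acid transporter subunit next to Snhg1, had -0.29.

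Kcnq1ot1 silences genes of the imprinted domain around Kcnq1 on the paternal chromosome. Of 12 listed genes of this domain 10 could be measured, without Phlda2 and Trpm5, which were not well above background on both arrays. Of the 10, 2 were at least 2-fold higher with the agonists, against 4.02% of all named genes. They were Cdkn1c, an inhibitor of the cell cycle (1944 signal units with the agonists and 499 with the antagonists, log2 ratio 1.72), and Slc22a18, a membrane transporter (206 and 51.0, log2 ratio 1.77). Kcnq1 itself, a potassium channel, had 0.52. The lowest of the 10 was Cars, the cysteinyl-tRNA synthetase, with -0.58, and the median was -0.04. Of the 10, 5 lay above 0 and 5 below, with Ascl2 at -0.55, Osbpl5 at -0.46 and Tssc4 at -0.36 among the latter. These values stood beside a median of -0.01 for Kcnq1ot1, and the arrays do not tell the parental alleles apart. Which of the 10 genes Kcnq1ot1 silences in the ovary was not measured.

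Genes for proteins of the bodies in which Malat1 and Neat1 reside had 0 members past 2-fold, and most lay below the median of all genes (-0.10). The 20 paraspeckle protein genes had a median log2 ratio of -0.24, and 17 of them lay below the median of all genes; the lowest was Hnrnph3 (-0.77) and the highest Pspc1 (0.26), a core paraspeckle protein. The 19 measured nuclear speckle genes had a median of -0.14, from -0.47 for the splicing factor Srsf2 to 0.27 for the kinase Clk4, with 13 below that of all genes. The 12 genes of RNase P, RNase Z and Mettl16, which cut or bind the end of Malat1, had a median of -0.21. They ran from -0.67 for Pop5 to 0.09 for Rpp25, with 11 below the median of all genes. After loess on mean signal, the medians of the paraspeckle, nuclear speckle and RNase P lists were -0.12, 0.01 and -0.07. The median of all usable probes was then 0.002, so the nuclear speckle list no longer lay below it. Proteins of snoRNA particles (10 genes, median -0.28, from -0.47 for Rrp9 to 0.03 for Dkc1) and factors of nonsense-mediated decay (10 genes, median -0.19, from -0.41 for Smg9 to 0.09 for Smg6) had 0 genes past 2-fold. Over all 11 lists related to the 6 RNAs, 0 of 122 list entries were at least 2-fold lower and 3 at least 2-fold higher, against 0.577% and 4.02% of all named genes, and nothing particular to the lists is read from these counts.

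**Figure D5:**
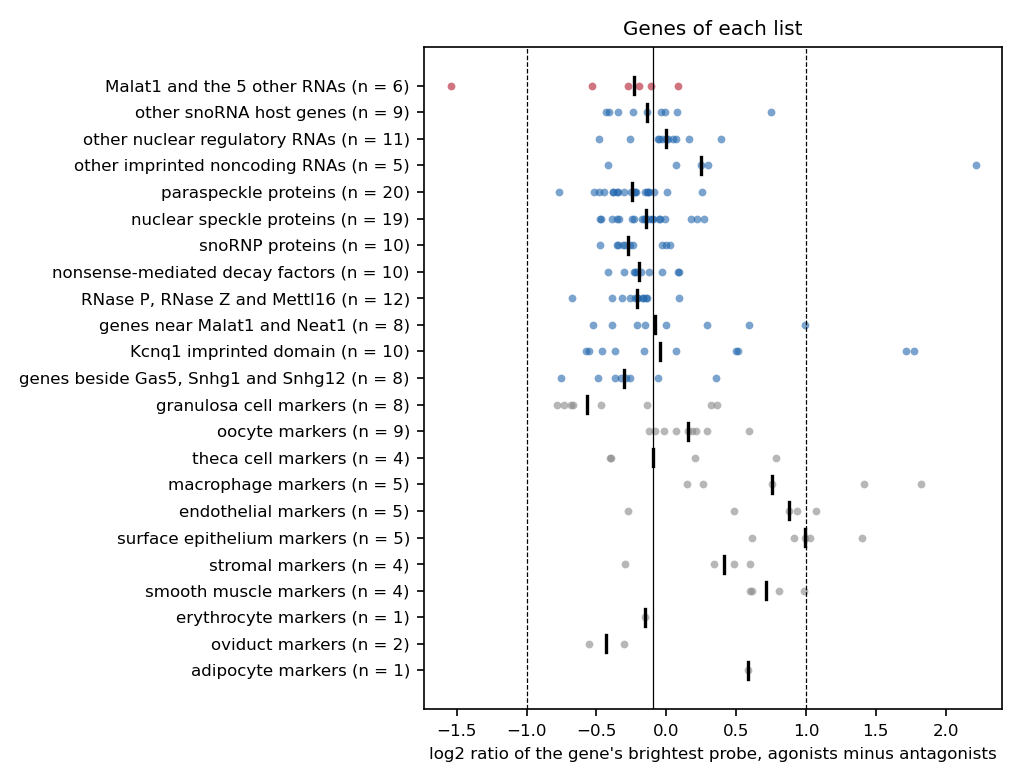
Log2 ratio (agonists minus antagonists) of the brightest probe of each gene for the 6 RNAs (red), 11 lists of related genes (blue) and 11 lists of cell type markers (grey); black bars are list medians, n is the number of genes well above background on both arrays, dashed lines mark 2-fold and the thin solid line the median of all genes. Malat1 is the one point past 2-fold lower, and the macrophage, endothelial, surface epithelium and smooth muscle markers lie mostly to the right.

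Cell type markers differed between the arrays beside Malat1 and Neat1. Surface epithelium markers (5 of 5 measured) had a median log2 ratio of 0.99, from 0.62 for Upk3b to 1.40 for Krt19, with Krt18 at 1.03. In units of the 75th percentile, their signals summed to 36.1 with the agonists and to 16.9 with the antagonists. Later sums are given in this order and take in every list gene on the array, also those left out of the medians. Since probes bind with their own strength, 1 bright probe can make up most of a sum. Kdr does so among the endothelial markers, and Csf1r among the macrophage markers. So do Dcn among the stromal, Gdf9 among the oocyte and Hsd3b1 among the theca cell markers. Krt18 and Inha make up a large part of the surface epithelium and granulosa cell sums. Macrophage markers (5 of 6, as Cd68 was not found on the array) had a median of 0.76 and summed to 11.4 and 9.06. Mrc1 (1.82) and Adgre1 (1.42) were past 2-fold by their brightest probes, and the lowest was Csf1r (0.15). The other Adgre1 probe had 0.72, under 2-fold, and the lowest of the 3 Csf1r probes had -0.09. Endothelial markers (5 of 6, without Tek) had a median of 0.88, from -0.27 for Kdr to 1.07 for Cldn5, and summed to 38.0 and 35.0. Smooth muscle markers (4 of 5, without Des) had a median of 0.71, from 0.60 for Acta2 to 0.99 for Myh11, and summed to 37.9 and 23.2. Stromal markers (4 of 4) had a median of 0.41, from -0.30 for Lum to 0.60 for Pdgfra, and summed to 254 and 208.

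Granulosa cell markers (8 of 8) had a median log2 ratio of -0.57, from -0.78 for Fst, the activin antagonist follistatin, to 0.37 for Cyp19a1, the aromatase. Of the 8, 6 lay below 0 and none was past 2-fold, and they summed to 98.1 and 131. The 2 usable probes of Foxl2, which maintains granulosa cell identity, disagreed in sign (0.32 and -0.37), as did those of Kdr (-0.27 and 0.38) among the endothelial markers. Oocyte markers (9 of 9) had a median of 0.16, from -0.13 for Zp3 to 0.59 for Figla, and summed to 244 and 252. Theca cell markers (4 of 5 on the array, without Lhcgr) had a median of -0.10, from -0.41 for Cyp17a1 to 0.79 for Cyp11a1, and summed to 85.1 and 84.1. Erythrocyte markers (1 of 4), oviduct markers (2 of 3) and adipocyte markers (1 of 4) summed to under 0.3 on each array; Hba-a1 had -0.15, Foxj1 -0.31, Ovgp1 -0.55 and Plin1 0.59. Hbb-bs, Adipoq and Lep were not well above background on either array. The part of the cell makeup in the ratios of Malat1 and Neat1 was not tested.

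The genes nearest to Malat1 in log2 ratio were sought among 8426 named genes whose mean signal reached the 75th percentile, over 2 arrays. They were Trib3 (-1.49), a pseudokinase induced by stress, Apoc3 (-1.37), an apolipoprotein, and the histone gene H2bc18 (-1.32), at distances of 0.05, 0.17 and 0.22 from the brightest Malat1 probe (-1.54). Trib3 read 1916 signal units with the agonists and 4565 with the antagonists. With 2 arrays, such a likeness is 1 number per gene.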

How the data were processed

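RNA of cultured ovaries was labelled with Cy3 and hybridised to 1-colour whole-genome arrays, 1 array per group on the same slide. The authors deposited spot intensities on a linear scale from Agilent Feature Extraction 10.10.1.1, background corrected and not scaled between arrays, with the software's marks. A deposited summary table equals this intensity times a constant per array (1.99 and 2.19).

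Control spots and spots marked as outliers were left out. The processed signal was divided by its array's 75th percentile and taken as log2, and spots of a probe were averaged. A probe was usable where over 50% of its spots were well above background on both arrays. Names came from RefSeq transcripts (GRCm38.p6, names and neighbours only, since the array was designed on another assembly) or from RNA names on the array; 1140 of 1216 probes with an NR accession were named, the 3 of NR_002840 from general knowledge. A gene with several probes was represented in lists by the brightest usable one. Named are the 6 RNAs, list genes past 2-fold, the highest and lowest gene of each list, and the 3 genes most like Malat1; other genes named, among them flanking genes, were chosen after their values were seen. The members and lists were chosen with earlier results of these data known.

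With 1 array per group no test was made, and the number of arrays limits the precision; for 284 probes at 10 spots each, the median SD of the log2 ratio over spots was 0.07. Alternatives were other scalings (none, median, bright probes, quantile, loess with span 0.3, spike-in controls), the deposited summary table, normexp (offset 50, on median spot signals), other spot and probe summaries, other filters and 4-fold. Python 3.11.15, numpy 2.4.6, pandas 2.3.3, statsmodels 0.14.6, R 4.3.3 and limma 3.58.1 were used.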

Additional observations from a re-analysis of the deposited data

How the results depend on the processing

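The log2 ratio of the brightest Malat1 probe, -1.54, was -1.30 when unscaled and -1.27 when scaled on spike-ins, and moved by less than its spot error in the other settings; it was -1.42 without the probes named NEAT2, a setting chosen after seeing the data. The count of 4 probes at least 2-fold lower was 4 under every scaling, background correction, spot summary and filter, 0 at 4-fold and 1 without the probes named NEAT2. The median of the 6 genes, -0.23, lay between -0.29 (scaling on the median) and 0.04 (spike-in scaling), and was -0.27 without the NR_002840 probes, also chosen after seeing the data. Of 236 values of the other member probes, 38 moved by more than their spot error and 22 changed sign, with 0 of these sign changes at Malat1 or Neat1 probes. Of 309 list medians, 43 changed sign. The median of all usable probes was -0.10, 0.14 unscaled and 0.18 on spike-ins, and values shift with it. Of all usable probes, 233 were 2-fold lower and 890 higher; these counts were 98 and 1499 unscaled, 88 and 1625 on spike-ins, 60 and 410 with normexp, 149 and 1099 in the summary table, 2333 and 3339 without a filter, 31 and 231 among bright probes, and 18 and 127 at 4-fold. No paired analysis was possible because there is a single array in each group and nothing was tested. Signal over background limits the 3 dimmest Kcnq1ot1 probes.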

Other observations

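Beside Malat1, 3 usable probes of long noncoding RNA genes were at least 2-fold lower with the agonists. Lockd, transcribed downstream of Cdkn1b, had a log2 ratio of -1.03 at a mean signal above the 75th percentile. Gm17769 (-1.63) and 4930539J05Rik (-1.19) were dim. These were named after their values were seen.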
